A study of Gallus gallus with 60 samples.

Results

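The change in the effect of streptomycin between 24 h and 72 h was measured in chicken utricles from 14 of the 60 libraries of a regeneration time course. It is the treated minus control difference at 72 h less the same difference at 24 h, an interaction of treatment and time, and it was computed for 13862 table entries. The groups were control utricles at 24 h (n = 4), treated utricles at 24 h (n = 4), control utricles at 72 h (n = 3) and treated utricles at 72 h (n = 3). Treated utricles had received streptomycin, an aminoglycoside that kills hair cells, for 24 h before a period of recovery. The sources used here do not say what the control utricles received, how old the birds were, how many utricles made up a sample or from which moment the hours ran. The labels number biological samples within each group. The p-values rest on the spread between samples within groups, estimated over all 56 samples of the series and not from these 14 libraries alone.

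The utricle is a balance organ of the inner ear. In birds, hair cells that die there are replaced by supporting cells, which either divide or convert directly. Dividing cells first copy their DNA with the replication machinery and later assemble a spindle with mitotic kinases, kinesins and cyclin B proteins, so transcripts of the first step and of the second need not appear together. Interferon-stimulated genes encode antiviral proteins and are induced in many cell types by interferons and by sensors of foreign or misplaced nucleic acids.

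Levels are given as RPKM, reads scaled to transcript length and to the alignments of the library, and differences on the log2(RPKM + 0.5) scale with the standard error (SE) of the limma fit. A call is a limma p under 0.05 after Benjamini-Hochberg adjustment over all 13862 entries tested. Libraries held 1769916 to 38699827 alignments (median 22177482). Control samples 1 and 2 and treated sample 1 of 24 h were below 5000000, so low values there are coarse. Hair cell markers of the utricle were present. The 7 markers summed were OTOF, MYO7A, TMC2, OCM2, SLC17A8, GFI1 and POU4F3. Their sum was 915 to 1280 RPKM in control utricles at 24 h and 1010 to 1160 at 72 h. In treated utricles it was 104 to 139 at 24 h and 145 to 228 at 72 h. OCM2 and OTOF made up most of the control sum, with means of 672 and 271 RPKM at 24 h. In whole utricles, fewer cells of a type and less RNA per cell cannot be told apart.

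The effect of treatment changed between 24 h and 72 h in 2 main gene groups that moved in opposite directions. Antiviral interferon-stimulated genes stood far above control at 24 h and near control at 72 h. The 5 called mitotic genes overlapped with control at 24 h and stood 3.51- to 4.58-fold above it at 72 h. Those 5 were selected by the interaction in these same libraries. Of all 68 mitosis genes tested, 11 were called higher at 24 h and 53 at 72 h, against 7.5% and 1.41% of all entries. In the median, genes of the hair bundle were low after treatment at both times, and genes of DNA replication were high at both times. Neither group gave a call, but so few entries were called at all that 0 in lists this short says little. Over all entries the interaction was called in 28 (0.202%), of which 8 were higher at 72 h (0.0577%) and 20 lower (0.144%). At an unadjusted p under 0.05 the number was 988 of 13862. Treatment by itself was called in 1788 entries at 24 h (12.9%) and in 596 at 72 h (4.3%). Of these, 413 were called at both times, 329 lower and 84 higher, and 0 had opposite signs. A model that pairs treated and control samples by number called 43 interactions (17 higher and 26 lower), 3302 effects at 24 h and 959 at 72 h. In that paired fit 4 entries were called at both times with opposite signs, NARS and ATP6V0D2 and, named after their values were seen, CHST10 and COL5A1. Leaving out the 3 shallow libraries left 9 calls, 1 higher and 8 lower, and leaving out 1 sample at a time gave 12 to 49. With the spread estimated from only the 14 libraries there were 7 calls, 0 higher and 7 lower.

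Of the 28 calls, 18 were lower entries whose effect was called at 24 h and not at 72 h, 7 were higher entries called only at 72 h, and 1 was an entry lower at 24 h that was not called at 72 h. The other 2 were LY6E, called higher at both times with a smaller effect at 72 h, and NARS, called lower only at 72 h. The split between higher and lower calls moved with the scaling: trimmed-mean scaling gave 17 higher and 19 lower, and quantile normalization gave 21 higher and 16 lower. At 24 h the split of treatment calls was 1039 higher (7.5%) and 749 lower (5.4%), against 605 and 888 with trimmed-mean scaling. In the median of all entries the treatment effect was 0.13 at 24 h and 0.07 at 72 h.

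**Figure D1:**
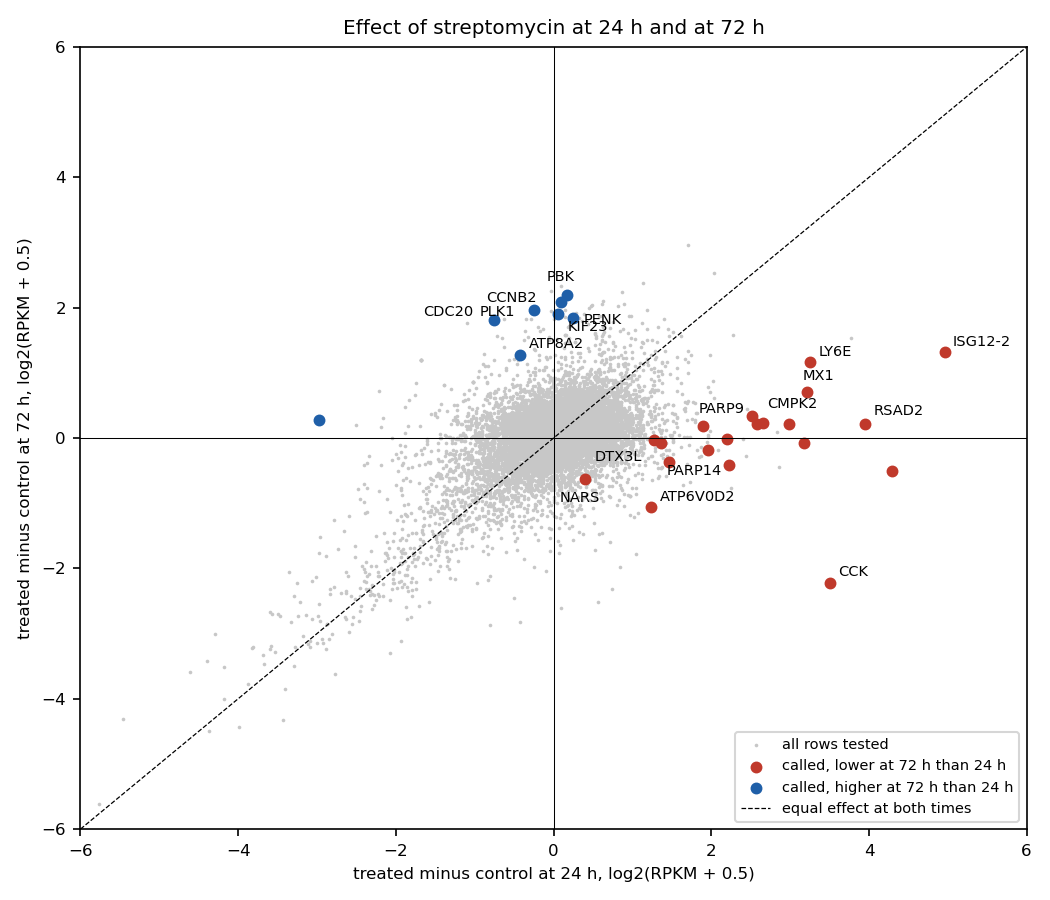
Effect of streptomycin at 24 h (horizontal axis) and at 72 h (vertical axis), each as treated minus control on the log2(RPKM + 0.5) scale; each point is 1 of 13862 entries. The 20 entries called lower (red) lie below the dashed line of equal effect and the 8 called higher (blue) lie above it, with the 18 calls that carry a gene symbol named.

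Interferon genes were lower at 72 h than at 24 h in treated utricles, in which 15 of the 41 genes tested were called lower, against 1.44% of all entries, and 0 higher. In control utricles 1 was called higher, against 0.599% of all entries, and 0 lower. Of 41 genes tested in the interferon response list, 23 were called higher after treatment at 24 h and 0 lower, against 7.5% and 5.4% of all entries. At 72 h 1, LY6E, was called higher, where all entries gave 196 higher calls (1.41%). The interaction was called lower in 8 of the 41 and higher in 0, against 0.144% and 0.0577% of all entries. The list's median effect was 1.23 at 24 h and 0.26 at 72 h, and its median interaction was −0.92 against −0.06 for all entries. Pair by pair, every 72 h difference lay below every 24 h difference in 24 of the 41 genes, against 10.1% of all entries.

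RSAD2, which encodes viperin, an enzyme that makes a chain-terminating antiviral nucleotide, was at 4.44, 1.92, 5.42 and 2.91 RPKM in control utricles at 24 h and at 62.3, 62.4, 63.2 and 53.5 in treated ones. At 72 h RSAD2 was at 11.7, 5.27 and 5.52 RPKM in control and at 6.71, 8.66 and 9.67 in treated utricles. The groups were far apart at 24 h and overlapped at 72 h. Its effect was 3.95 ± 0.43 (SE) at 24 h, a 15.4-fold difference, and 0.22 ± 0.50 at 72 h, and the interaction was −3.72 ± 0.66 (limma adjusted p = 0.0039).

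CMPK2, a nucleotide kinase gene that lies next to RSAD2 in the RefSeq annotation with 0 protein-coding genes between, gave 7.76, 3.35, 6.01 and 3.14 RPKM in control and 43.7, 21.8, 34.3 and 34.1 in treated utricles at 24 h. At 72 h CMPK2 was at 7.99, 7.39 and 6.01 RPKM in control and 6.41, 10.9 and 8.40 in treated utricles. The separation seen at 24 h was again gone, and the interaction of CMPK2 was −2.43 ± 0.46 (limma adjusted p = 0.00766). Whether reads were assigned by strand is not given, so reads of overlapping neighbours cannot be told apart.

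ISG12-2, a member of the family of small interferon-induced mitochondrial and membrane proteins, had the largest effect of the list at 24 h. It was at 4.92, 6.38, 3.86 and 3.06 RPKM in control and at 205, 114, 179 and 127 RPKM in treated utricles, a 31.1-fold difference. At 72 h ISG12-2 was at 12.1, 7.35 and 4.04 RPKM in control and at 17.4, 22.4 and 16.6 in treated utricles. Treated samples were still all above controls at 72 h, but that difference of 1.32 ± 0.43 was not called (limma adjusted p = 0.0769), although it was in the paired fit (adjusted p = 0.0454). The interaction was −3.64 ± 0.56 (limma adjusted p = 0.000923). Close copies of this gene family could share reads, which was not tested.

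LY6E, a membrane-anchored protein gene of the interferon response, kept part of its rise. Control utricles had 8.95, 14, 11.8 and 10.9 RPKM of LY6E at 24 h and treated ones 137, 84.7, 130 and 103. At 72 h the values were 8.85, 24.1 and 13.7 in control and 25.9, 42.3 and 32.4 in treated utricles, again without overlap. Its effect fell from 3.25 ± 0.30 at 24 h to 1.17 ± 0.35 at 72 h, with an interaction of −2.08 ± 0.46 (limma adjusted p = 0.034). MX1, a dynamin-like antiviral GTPase, went from 1.21 to 1.66 RPKM in control and 14.1 to 27.3 in treated utricles at 24 h to 1.55 to 2.67 and 2.93 to 3.70 at 72 h. Its interaction was −2.50 ± 0.51 (limma adjusted p = 0.0172).

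Neighbouring genes of the ADP-ribosylation branch showed the same loss of effect. PARP14, a mono-ADP-ribosyltransferase, was at 3.20, 4.10, 3.95 and 5.35 RPKM in control and 13.8, 14.4, 23.2 and 19.6 in treated utricles at 24 h. At 72 h PARP14 was at 10.2, 6.57 and 7.63 RPKM in control and 6.62, 7.37 and 6.88 in treated utricles. Both arms moved: treated utricles fell by 1.26 (limma adjusted p = 0.000964) and controls rose by 0.89 (limma adjusted p = 0.0476), and the interaction was −2.15 ± 0.32 (limma adjusted p = 0.000764), the smallest adjusted p of the 18 calls with a symbol. DTX3L, a ubiquitin ligase, and PARP9, its partner protein, had interactions of −1.43 ± 0.27 (limma adjusted p = 0.00766) and −1.70 ± 0.36 (limma adjusted p = 0.0315). In the RefSeq annotation DTX3L has 0 protein-coding genes between it and PARP14 and 0 between it and PARP9.

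Of the 41 interactions 36 were below 0, most of them not called. OASL, an antiviral protein of the oligoadenylate synthetase family, and ZC3HAV1, which binds viral RNA, were picked out here after their values were seen. OASL had an interaction of −2.0 ± 0.58 (limma adjusted p = 0.217) and ZC3HAV1 one of −0.95 ± 0.24 (limma adjusted p = 0.106). Markers of leukocytes, which can respond to interferon, gave sums that overlapped between groups: 41 genes summed to 207 to 268 RPKM in control and 226 to 313 in treated utricles at 24 h, and to 162 to 268 and 221 to 280 at 72 h. CD86 was at 0 in every control library of 24 h. PTPRC, the pan-leukocyte marker CD45, was at 0 to 0.709 RPKM across the 14 libraries, whereas CD74, the invariant chain of MHC class II molecules, picked out after its values were seen, had group means of 16.9 to 35.4 RPKM. Of 33 leukocyte genes tested, 4 were called higher and 2 lower after treatment at 24 h, against 7.5% and 5.4% of all entries. At 72 h 1 was called higher and 1 lower, against 1.41% and 2.89%. The part of leukocytes in the interferon result was not tested.

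**Figure D2:**
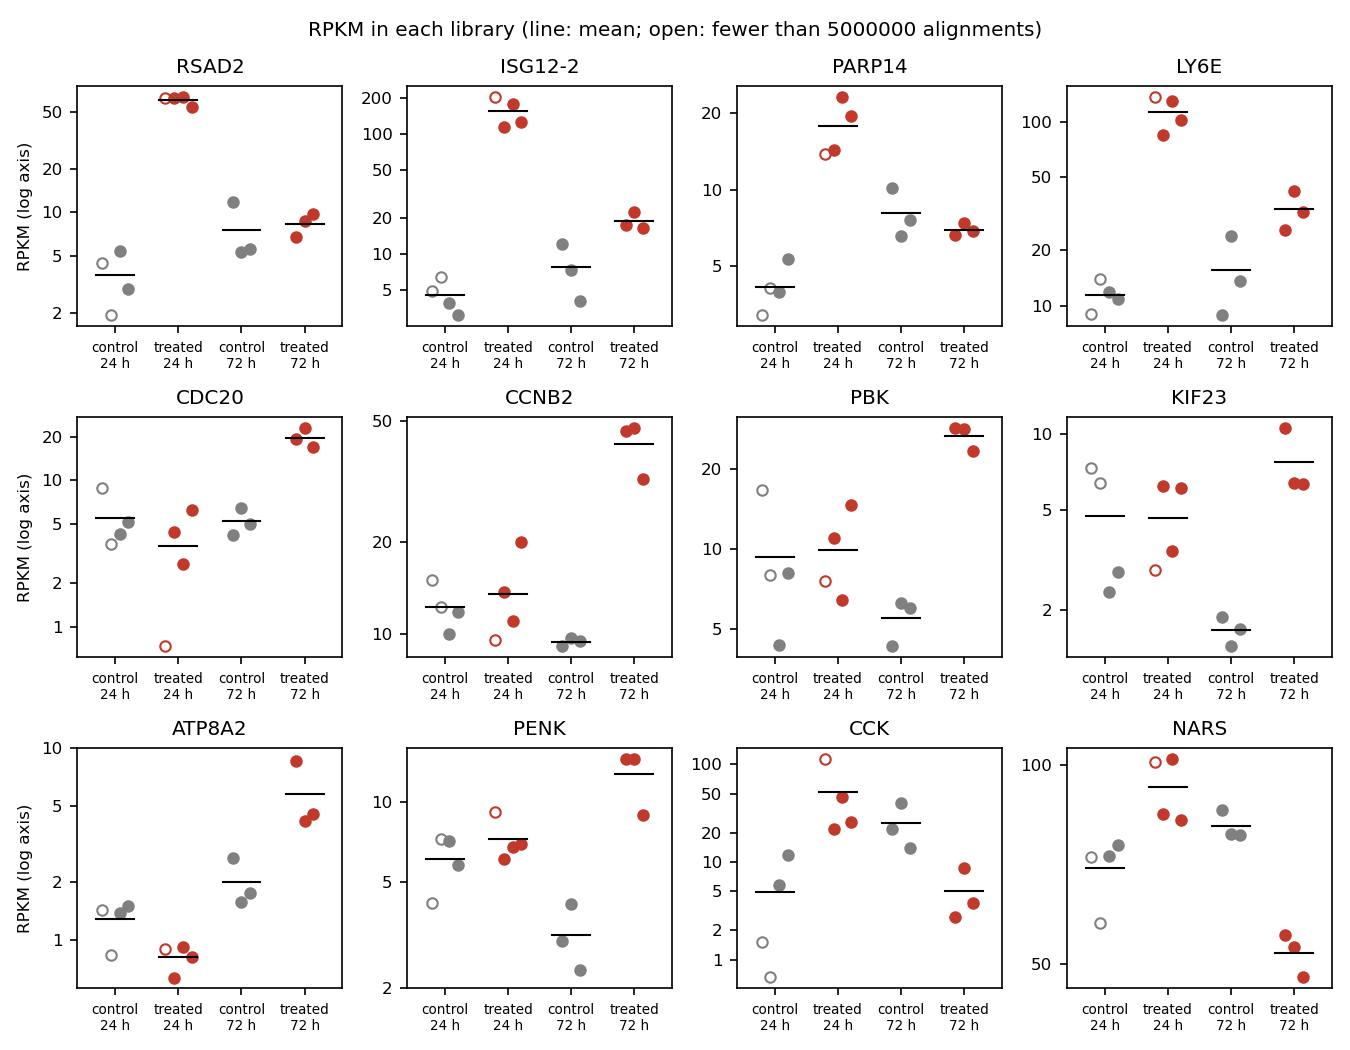
RPKM of 12 genes in each of the 14 libraries, on log axes, with control utricles in grey and treated utricles in red; a line marks the group mean and open points are libraries under 5000000 alignments. RSAD2, ISG12-2, PARP14 and LY6E are high in treated utricles of 24 h, whereas CDC20, CCNB2 and PBK are highest in treated utricles of 72 h.

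The mitosis list had a larger median effect at 72 h than at 24 h. Of 68 mitosis genes tested, 11 were called higher after treatment at 24 h and 53 at 72 h, against 7.5% and 1.41% of all entries. At either time 0 were called lower, against 5.4% and 2.89%. The interaction was called higher in 5 and lower in 0, against 0.0577% and 0.144% of all entries. The paired fit called 9 of the 68 higher, trimmed-mean scaling 9 and quantile normalization 12. All entries gave 17, 17 and 21 higher calls in these settings. The list's median effect was 0.38 at 24 h and 1.58 at 72 h, and its median interaction was 1.24 against −0.06 for all entries. Every 72 h pair difference lay above every 24 h one in 38 of the 68 genes, against 5.5% of all entries. In treated utricles 27 mitosis genes were called higher at 72 h than at 24 h and 1 lower, where all entries gave 225 higher (1.62%) and 199 lower (1.44%). In control utricles 0 of the 68 were called higher or lower, against 0.599% and 0.115% of all entries, with a median change of −0.28.

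CDC20, the activator of the anaphase-promoting complex, was at 8.91, 3.70, 4.31 and 5.20 RPKM in control and at 0.731, 4.46, 2.67 and 6.31 in treated utricles at 24 h. At 72 h CDC20 was at 4.23, 6.53 and 5.07 RPKM in control and at 19.1, 22.9 and 17.0 in treated utricles. The groups overlapped at 24 h and were separate at 72 h. Its effect was −0.76 ± 0.32 at 24 h, which was not called, and 1.81 ± 0.37 at 72 h, and the interaction was 2.57 ± 0.48 (limma adjusted p = 0.00766).

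CCNB2, a B-type cyclin that drives entry into mitosis, was at 15, 12.3, 10 and 11.8 RPKM in control and at 9.56, 13.7, 11.0 and 20 in treated utricles at 24 h. At 72 h CCNB2 was at 9.10, 9.72 and 9.50 RPKM in control and at 46.5, 47.5 and 32.4 in treated utricles, a 4.23-fold difference. The interaction was 1.98 ± 0.38 (limma adjusted p = 0.00816). PBK, a mitotic protein kinase, rose in the same samples, to 28.7, 28.4 and 23.5 RPKM in treated utricles at 72 h against 4.30, 6.26 and 6.0 in controls. Its interaction was 2.03 ± 0.43 (limma adjusted p = 0.0292).

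PLK1, a kinase of spindle assembly, and KIF23, a kinesin of the central spindle needed for cytokinesis, completed the called members. PLK1 was at 14.3, 12.7 and 8.67 RPKM in treated and 2.00, 2.95 and 2.98 in control utricles at 72 h, and its interaction was 2.22 ± 0.48 (limma adjusted p = 0.0325). KIF23 was at 10.6, 6.39 and 6.35 RPKM in treated and 1.88, 1.43 and 1.68 in control utricles at 72 h. At 24 h its control samples held 7.31 and 6.37 RPKM in the shallow libraries and 2.35 and 2.83 in the deeper ones. Treated utricles held 2.87, 6.21, 3.43 and 6.10 RPKM of KIF23 at 24 h. From 24 h to 72 h KIF23 changed by 0.71 in treated utricles (limma adjusted p = 0.193) and by −1.14 in controls (limma adjusted p = 0.0581). Neither change was called, and the one in controls was the larger. The interaction of KIF23 was 1.85 ± 0.42 (limma adjusted p = 0.0415). Pair 1 of 24 h, in which both libraries were shallow, gave the lowest pair difference for all 5 genes.

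Without the 3 shallow libraries none of the 5 mitotic genes was called and 0 of the 68 list members were. CDC20 then had an interaction of 1.95 (limma adjusted p = 0.0511), CCNB2 one of 1.68 (limma adjusted p = 0.257) and KIF23 one of 1.05 (limma adjusted p = 0.996). The list's median interaction was 0.95 and its effect at 24 h had a median of 0.62, with 55 members called higher at 72 h. Of the interferon genes ISG12-2, CMPK2, PARP14 and DTX3L stayed called, and 4 lost the call. Their adjusted p in the same limma fit was 0.0531 for RSAD2, 0.0847 for MX1, 0.12 for PARP9 and 0.445 for LY6E. The interactions of these 4 were then −3.52, −2.64, −1.70 and −1.97, against −3.72, −2.50, −1.70 and −2.08 with all libraries. Fewer samples remained at 24 h in both arms of that fit.

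TOP2A, the topoisomerase that untangles sister chromatids, and CDK1, the mitotic kinase, had the same direction without a call. TOP2A was at 5.88 to 7.08 RPKM in control and 22.6 to 35.3 in treated utricles at 72 h, with an interaction of 1.54 ± 0.38 (limma adjusted p = 0.0857). CDK1 had an interaction of 1.52 ± 0.41 (limma adjusted p = 0.156).

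DNA replication genes were higher after treatment at both times. Of 48 tested, 37 were called higher at 24 h and 23 at 72 h, against 7.5% and 1.41% of all entries. At either time 0 were called lower, and the median effect was 0.83 and 0.75. Without the shallow libraries 17 were called higher at 24 h, where all entries gave 163 higher calls, and 23 at 72 h. The limma fit called 0 interactions in this list, and the fit with paired samples also called 0. An unadjusted p under 0.05 was found in 5 of the 48, against 988 of the 13862 entries. MCM6, a subunit of the replicative helicase, was at 24.7, 19.9, 25.3 and 20.2 RPKM in control and at 58.8, 45.2, 57.5 and 56 in treated utricles at 24 h. At 72 h MCM6 was at 22, 16.4 and 20.3 RPKM in control and at 58.7, 53.8 and 56.3 in treated utricles. Its effect was 1.25 ± 0.19 at 24 h and 1.51 ± 0.22 at 72 h, and the interaction of 0.26 ± 0.29 was not called (limma adjusted p = 0.92).

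MCM2, another helicase subunit, had effects of 1.56 ± 0.19 and 1.25 ± 0.22, and PCNA, the sliding clamp of the DNA polymerases, 0.65 ± 0.16 and 0.73 ± 0.19. RRM2, the small subunit of ribonucleotide reductase, differed in its controls: it fell from 46.2 to 105 RPKM at 24 h to 13.4 to 23.1 RPKM at 72 h, a change of −1.88 (limma adjusted p = 0.00732). Treated utricles held 78.0 to 153 RPKM of RRM2 at 24 h and 64.0 to 84.2 at 72 h, and its interaction was 1.21 ± 0.54 (limma adjusted p = 0.645).

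**Figure D3:**
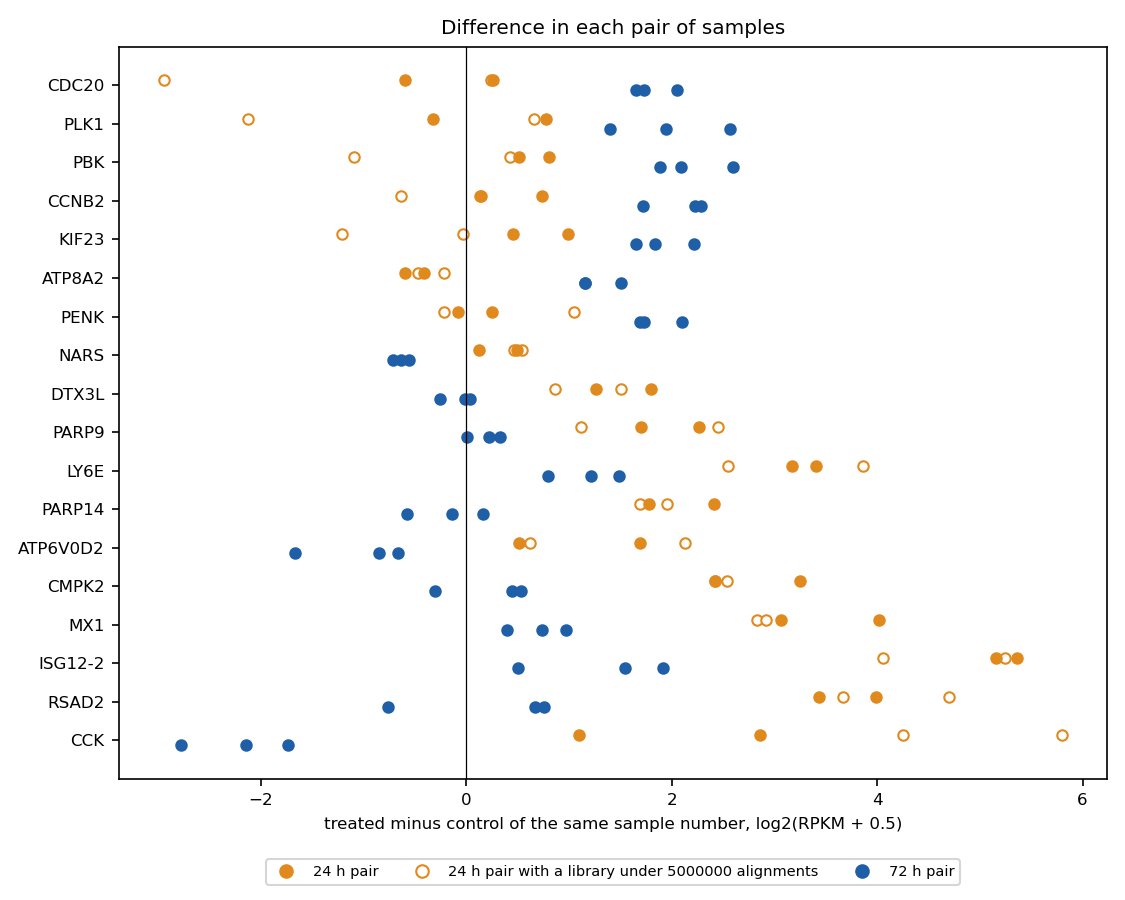
Treated minus control difference of the 18 called genes with a symbol, on the log2(RPKM + 0.5) scale, for each pair of samples with the same number (orange for the 4 pairs of 24 h, blue for the 3 pairs of 72 h; open points include a library under 5000000 alignments). The 72 h points lie above all 24 h points for the 7 genes at the top and below them for the 11 at the bottom. Of all entries 5.5% lay above and 10.1% below in this way. The 18 genes were called from these same libraries, so their separation is not separate evidence.

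Most of the hair cell genes tested were called lower after treatment at both times. Of 38 hair bundle and mechanotransduction genes, 28 were called lower at 24 h and 25 at 72 h, and of 31 synapse, channel and calcium buffer genes, 21 and 17. Over all entries 5.4% were called lower at 24 h and 2.89% at 72 h. Neither list had a called interaction in the limma fit. In each list 3 members had an unadjusted p under 0.05, against 988 of the 13862 entries. The paired fit called 0 in each and trimmed-mean scaling called 1 in the hair bundle list. In 7 of the 38 hair bundle genes every 72 h pair difference lay above every 24 h one, against 5.5% of all entries. In 3 of the 38 every 72 h difference lay below, against 10.1%. Of the 31 synapse, channel and calcium buffer genes 1 lay above and 1 below in this way.

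OTOF, the calcium sensor of transmitter release in hair cells, was at 311, 244, 308 and 221 RPKM in control and at 27.8, 28.2, 25.2 and 30.8 in treated utricles at 24 h. At 72 h OTOF was at 289, 336 and 356 RPKM in control and at 53.9, 43.7 and 49.5 in treated utricles. Treated levels were thus below every control sample at both times. The effect was −3.24 ± 0.23 at 24 h and −2.73 ± 0.27 at 72 h, and the interaction of 0.51 ± 0.35 was not called by limma. OCM2, an oncomodulin calcium buffer, had effects of −3.47 ± 0.22 and −2.73 ± 0.26, and MYO7A, an unconventional myosin of the hair bundle, −1.95 ± 0.26 and −1.91 ± 0.30. USH1C, also a hair bundle gene, was near control at both times, with effects of −0.05 ± 0.22 and −0.02 ± 0.26.

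Among hair cell transcription factors 0 of 16 had a called interaction. An unadjusted p under 0.05 was found in 1, against 988 of the 13862 entries. POU4F3, needed for hair cell survival, was called lower at 24 h (−1.33 ± 0.30) and not at 72 h (−0.66 ± 0.35), and the difference of 0.67 ± 0.46 was not called by limma. GFI1, which acts in hair cell differentiation, stayed low, with effects of −2.23 ± 0.23 and −2.40 ± 0.26. ATOH1, the factor that starts hair cell fate, had an interaction of 0.99 ± 0.84 (limma adjusted p = 0.878). HES6, a Hes family gene expressed in young hair cells, was at 31.5 to 41.0 RPKM in treated and 3.84 to 10.9 in control utricles at 72 h, an effect of 2.24 ± 0.55, but its interaction of 1.37 ± 0.72 was not called (limma adjusted p = 0.734).

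Interactions were called in 0.202% of all entries, so counts of 0 in short lists, here and elsewhere, say little. The limma fit called 0 interactions among 24 FGF, 36 TGF-beta and BMP, and 43 Wnt pathway genes. Of these 0, 4 and 1 had an unadjusted p under 0.05, against 988 of the 13862 entries. In the Notch list 1 of 30 genes was called, DTX3L, which is also in the interferon list. DLL1, a Notch ligand, had an interaction of 0.69 ± 0.62, and LFNG, a glycosyltransferase that modifies Notch, one of 0.43 ± 0.41, neither of them called. Of 24 supporting cell genes 0 were called and 2 had an unadjusted p under 0.05. In 7 of the 24 every 72 h pair difference lay above every 24 h one, against 5.5% of all entries, and in 0 below, against 10.1%. A shorter set of 7 supporting cell markers summed to 1240 to 1750 RPKM in control and 1500 to 2000 in treated utricles at 24 h. At 72 h the sums of these 7 were 1020 to 1110 in control and 1340 to 2110 in treated utricles. EDNRB2, an endothelin receptor gene, was higher after treatment at both times, by 1.70 ± 0.36 and 2.96 ± 0.41, with an interaction of 1.26 ± 0.54 (limma adjusted p = 0.623).

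**Figure D4:**
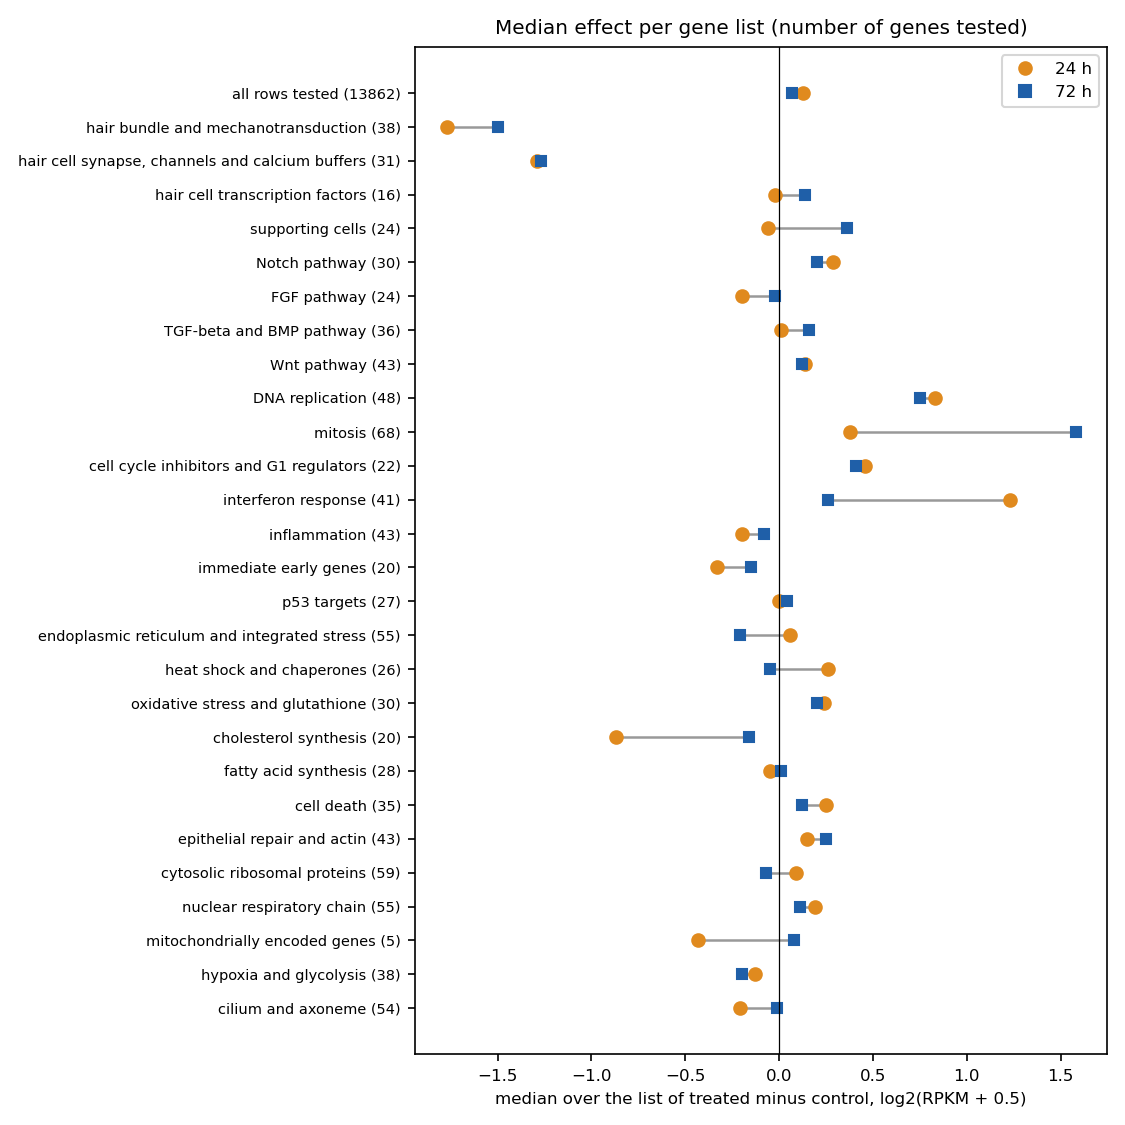
Median treatment effect of each gene list at 24 h (orange circles) and at 72 h (blue squares), on the log2(RPKM + 0.5) scale, with the number of genes tested in brackets. The mitosis list moves from 0.38 to 1.58 and the interferon list from 1.23 to 0.26, while the DNA replication list moves from 0.83 to 0.75 and the hair bundle list moves from −1.77 to −1.50.

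Cholesterol synthesis genes were lower after treatment at 24 h and near control at 72 h. Of 20 tested, 11 were called lower at 24 h and 0 at 72 h, against 5.4% and 2.89% of all entries. The median effect was −0.87 and −0.16. At other times the list's median was −0.40 at 0 h, −0.54 at 48 h, 0.21 at 54 h, −0.61 at 96 h and −0.47 at 168 h. No interaction was called by limma or by the paired fit, so a difference between the times was not established for any member. An unadjusted p under 0.05 was found in 5 of the 20 genes, against 988 of the 13862 entries. INSIG1, a sterol-regulated brake on cholesterol synthesis, was at 41.4, 62.0, 33.2 and 49.7 RPKM in control and at 9.20, 12.6, 11.7 and 22.5 in treated utricles at 24 h. At 72 h INSIG1 was at 31.3, 89.9 and 35.0 RPKM in control and at 26.3, 45.0 and 50.4 in treated utricles. Its interaction was 1.5 ± 0.56 (limma adjusted p = 0.497). Control sample 2 of 72 h was the highest of its group for INSIG1 and also for COL1A1, a stromal collagen, at 738 RPKM against 74.4 and 84.7. The COL1A1 differences of pairs 1, 2 and 3 of 72 h were 2.79, 0.14 and 0.36, so treated sample 2 was high as well. A link between COL1A1 and INSIG1 was not tested. Without the shallow libraries 4 of the 20 were called lower at 24 h, where all entries gave 428 lower calls.

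In the endoplasmic reticulum and integrated stress list, 14 of 55 genes were called higher in control utricles at 72 h than at 24 h, where all entries gave 83 (0.599%), and 0 were called lower, against 0.115% of all entries. In treated utricles 2 were called higher and 1 lower, against 1.62% and 1.44% of all entries. Treatment was called to lower 2.89% of all entries at 72 h and 9 of the 55 list genes. The list's median interaction was −0.35 against −0.06 for all entries. An unadjusted p under 0.05 was found in 16 of the 55, against 988 of the 13862 entries. Every 72 h pair difference lay below every 24 h one in 25.5% of the list, against 10.1% of all entries. In 9.09% every one lay above, against 5.5%. ASNS, asparagine synthetase, was picked out here after its values were seen. It was at 12.2, 23.9, 7.79 and 34.0 RPKM in control utricles at 24 h and at 126, 58.9 and 74.0 at 72 h. Treated utricles held 11.4, 13.2, 14.6 and 12.4 RPKM of ASNS at 24 h and 21.2, 26.5 and 19.3 at 72 h. The rise in control was 2.26 (limma adjusted p = 0.00263), and the interaction of −1.49 ± 0.60 was not called (limma adjusted p = 0.556).

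NARS, asparaginyl-tRNA synthetase, was the list's called interaction. The change in its control utricles was 0.22 and was not called (limma adjusted p = 0.613), and its treated utricles fell by 0.82 (limma adjusted p = 0.00217). It was at 72.6, 57.7, 72.8 and 75.7 RPKM in control and at 101, 84.2, 102 and 82.5 in treated utricles at 24 h. At 72 h NARS was at 85.4, 78.5 and 78.3 RPKM in control and at 55.2, 53.1 and 47.7 in treated utricles. Treated samples were all above control at 24 h and all below it at 72 h. Its effect was 0.40 ± 0.15 at 24 h (limma adjusted p = 0.0606) and −0.63 ± 0.17 at 72 h (limma adjusted p = 0.0173), and the interaction was −1.04 ± 0.22 (limma adjusted p = 0.0315). In the paired fit the effect was called at both times, with adjusted p of 0.0177 at 24 h and 0.00442 at 72 h. Without the shallow libraries the interaction was −0.89 and was not called (limma adjusted p = 0.543). It was also not called in 10 of the 14 fits that left out 1 sample. CTH, which makes cysteine from cystathionine and was picked out after its values were seen, had an interaction of −1.82 ± 0.42 just short of a call (limma adjusted p = 0.0562).

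A pair of neuropeptide genes was called in opposite directions. CCK, cholecystokinin, was at 1.53, 0.663, 5.88 and 11.7 RPKM in control and at 113, 21.7, 45.7 and 25.6 in treated utricles at 24 h. At 72 h CCK was at 21.6, 40.2 and 13.8 RPKM in control and at 2.73, 8.73 and 3.81 in treated utricles. The order of the arms was thus reversed, without overlap at either time. Its effect was 3.50 ± 0.78 at 24 h, which was called, and −2.22 ± 0.90 at 72 h, which was not (limma adjusted p = 0.235). The interaction of −5.72 ± 1.19 (limma adjusted p = 0.0228) was the largest in size of the 28 calls. It was not called without the shallow libraries, where it was −3.98 (limma adjusted p = 0.96).

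PENK, proenkephalin, was at 4.18, 7.22, 7.15 and 5.78 RPKM in control and at 9.18, 6.12, 6.75 and 6.97 in treated utricles at 24 h. At 72 h PENK was at 3.0, 4.15 and 2.34 RPKM in control and at 14.5, 14.5 and 8.94 in treated utricles. Overlapping groups at 24 h were followed by separate ones at 72 h, with an interaction of 1.59 ± 0.35 (limma adjusted p = 0.034). Without the shallow libraries this interaction was 1.81 and was not called (limma adjusted p = 0.0531).

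The other calls with a symbol encode membrane proteins. ATP8A2, a phospholipid flippase, was at 1.43, 0.826, 1.37 and 1.49 RPKM in control and at 0.898, 0.634, 0.910 and 0.814 in treated utricles at 24 h. At 72 h ATP8A2 was at 2.66, 1.57 and 1.76 RPKM in control and at 8.53, 4.14 and 4.54 in treated utricles. Its effect of 1.28 ± 0.23 was called at 72 h, the interaction was 1.70 ± 0.30 (limma adjusted p = 0.0039), and it was the 1 higher call that remained without the shallow libraries. ATP6V0D2, a subunit of the proton-pumping V-ATPase, was at 0.349 to 3.21 RPKM in control and 3.22 to 4.79 in treated utricles at 24 h, and at 3.56 to 4.26 and 0.791 to 2.51 at 72 h. Its interaction was −2.30 ± 0.51 (limma adjusted p = 0.034), and in the paired fit its effect was called with opposite signs at the 2 times. Without the shallow libraries this interaction was −2.09 and was not called (limma adjusted p = 0.199).

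The remaining 10 calls had no gene symbol that could be used. Among them ENSGALG00000006384 was at 12.2 to 21.5 RPKM in control and 114 to 173 in treated utricles at 24 h, and at 20 to 52.2 and 24.8 to 32.1 at 72 h, with an interaction of −3.25 ± 0.53 (limma adjusted p = 0.00179). ENSGALG00000000526 went the other way, from an effect of −2.98 ± 0.48 at 24 h to 0.27 ± 0.55 at 72 h, with an interaction of 3.25 ± 0.73 (limma adjusted p = 0.0403).

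Most called interactions came with a change in treated utricles. The change from 24 h to 72 h was called in treated utricles for 23 of the 28 (17 lower and 6 higher), against 3.06% of all entries, and in control utricles for 3, against 0.714%. The treated change was the larger one in 24. These contrasts use the libraries that enter the interaction, so they describe the calls and are not separate evidence.

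The same kind of contrast was made in other samples, as the mean effect at 48 to 66 h minus the effect at 0 h. Its estimates took no value from the 14 libraries. Its p-values come from the same fit as the interaction, with a shared estimate of spread that includes those libraries. Calls in this contrast are thus not separate evidence. The contrast had the sign of the interaction in 26 of the 28 calls, against 66.5% of all entries. It was itself called in that direction in 9, where all entries gave 225 calls (1.62%). ATP8A2, PBK, PENK, CCNB2 and KIF23 were called higher in it, and DTX3L, PARP14, NARS and CMPK2 lower. LY6E had the opposite sign, at 0.50.

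Over the 11 times the median effect of the mitosis list was −0.16 at 0 h, 0.38 at 24 h, 1.47 at 48 h and 1.90 at 60 h, and came back to 0.30 at 168 h. The interferon list was already at 0.92 at 0 h, reached 1.23 at 24 h, and was at 0.68 at 48 h and 0.04 at 96 h. Its median was 0.41 at 144 h and 0.14 at 168 h. At 54 h the interferon list stood at 0.40 and the mitosis list at 1.54. These medians are descriptions, and steps between neighbouring times were not tested. CCK had an effect of 0.85 at 0 h, 0.74 at 48 h and −2.46 at 54 h, stayed below 0 until 120 h and was 0.76 at 144 h.

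**Figure D5:**
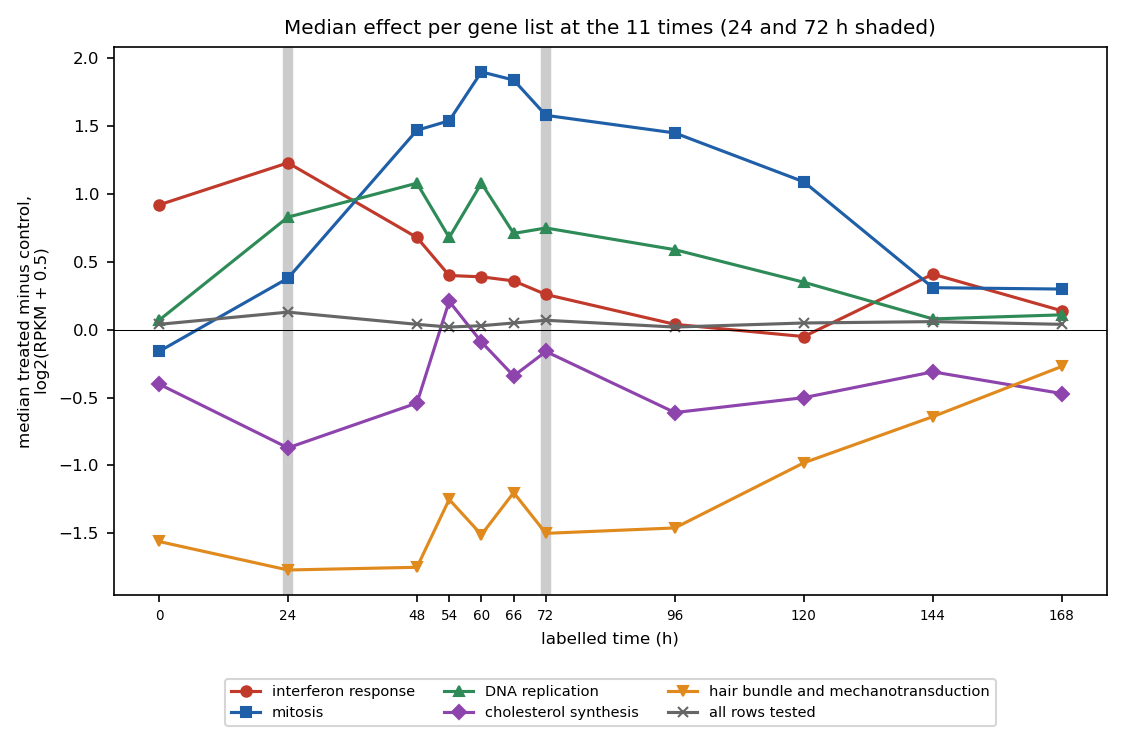
Median treated minus control effect of 5 gene lists and of all entries at the 11 labelled times, on the log2(RPKM + 0.5) scale, with 24 h and 72 h shaded. The interferon and mitosis curves cross between 24 h and 48 h, DNA replication is at 0.83 by 24 h, and the hair bundle list stays below −1 until 96 h.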

How the data were processed

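The authors deposited a table of 17684 rows in RPKM, to judge from the values, since the table names no unit: in 55% of 1606 rows checked more than 90% of values, times the alignments of their library, lay within 0.05 of whole steps, against 0% of 1418 rows without the alignments. RPKM is relative to all transcripts of a library, and a count test does not apply to it. Per the submitters' processing notes, TopHat 1.4.0 and Partek 6.6 were used. The sources used here give no genome build, annotation or counting rule. Coordinates are left out for that reason.

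Values were analysed as log2(RPKM + 0.5), which understates folds of low genes. Testing was limited to rows that reached 1 RPKM in 2 or more of the 60 libraries. Repeat libraries were averaged, leaving 56 samples in 22 group means (34 residual degrees of freedom; limma 3.58.1 with a mean-variance trend, R 4.3.3). The fit used all groups, which share 1 estimate of the spread. The script was tested on simulated data. Same-numbered treated and control samples deviated together in all 7 pairs (r from 0.117 to 0.71). Treated sample 1 of 24 h matched control 3 slightly better (r = 0.123). The numbers were therefore taken as pairs, but only in the paired fits and the pair differences. The unpaired fit, which gave the other calls, errors and adjusted p, had no term for pairs. The pairing comes from the shared number and the check, and the labels do not state it. The paired alternative had 17 residual degrees of freedom. Alternatives were the pseudocount, filter, scaling, library set, sample weights and leaving out each sample.

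Named genes were the called ones with a symbol, up to 15 in each direction with a mean of at least 2 RPKM in some group, plus list members and genes fixed by name. The members and lists were chosen with earlier results of these data known. The table also has 2 columns that match no sample, which were not used. Of the row names, 10851 matched RefSeq symbols (GRCg7b) and 867 synonyms, and 4080 are Ensembl identifiers. Promoter and protein sequences were not used here.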

Additional observations from a re-analysis of the deposited data

Results flagged for a closer look

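The treatment effect differed between 24 h and 72 h, by the interaction test, in 28 entries. The interaction on the log2(RPKM + 0.5) scale was 2.57 for CDC20, 2.22 for PLK1, 2.03 for PBK, 1.98 for CCNB2, 1.85 for KIF23, 1.70 for ATP8A2 and 1.59 for PENK. It was −5.72 for CCK, −3.72 for RSAD2, −3.64 for ISG12-2, −2.50 for MX1, −2.43 for CMPK2, −2.30 for ATP6V0D2, −2.15 for PARP14, −2.08 for LY6E, −1.70 for PARP9, −1.43 for DTX3L and −1.04 for NARS. Their errors and adjusted p are given with each gene above.

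In treated utricles of 24 h, sample 4 had 53.5 RPKM of RSAD2, apart from the 62.3 to 63.2 of the other samples. This was 1 of 36 sets of 4 samples examined, and chance sets about 1 in 20 such groups apart.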

How the results depend on the processing

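Among the 18 called genes with a symbol, each kept its direction in every alternative setting that gave it a value, 25 for 14 genes and 24 for KIF23, ATP8A2, ATP6V0D2 and DTX3L, and 0 results reversed. ISG12-2 and PARP14 were called in all 25. CDC20, CCNB2, ATP8A2, RSAD2, ISG12-2, CMPK2, PARP14 and DTX3L were called whichever of the 14 samples was left out, whereas NARS and KIF23 lost the call in 10 cases each, PLK1, PENK, ATP6V0D2, LY6E and PARP9 in 8 each, PBK and CCK in 7 each and MX1 in 3. Of 89 uncalled genes taken from the lists and the genes fixed by name 1, TOP2A, was called in some alternative (limma adjusted p from 0.023). The 89 do not cover all list members: a list without a call entered only those of highest mean RPKM, besides genes fixed by name. The mitosis list had 5 interaction calls as reported, 9 with trimmed-mean scaling, 12 with quantile normalization and 9 with the block. Genes picked out from the paired fit after their values were seen are not among the 89.

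The 28 interaction calls became 16 with a pseudocount of 0.1, 39 with a pseudocount of 1, 7 when only the 14 libraries were fitted, 43 with the replicate block and 9 without libraries under 5000000 alignments. A block without samples 1 and 2 of 24 h in both arms, added after the data were seen, gave 8. These include treated sample 2, which had 9290589 alignments and was not shallow. Leaving out 1 sample gave 12 to 49 calls: for control samples 1 and 4 of 24 h 15 and 46, for control samples 1, 2 and 3 of 72 h 12, 16 and 14, for treated samples 1, 3 and 4 of 24 h 15, 17 and 49, and for treated samples 1, 2 and 3 of 72 h 14, 15 and 16. Of the 43 blocked calls 26 were among the 28. The 1788 calls at 24 h became 936 with only the 14 libraries, 3302 with the block and 591 without the shallow libraries. With the block and without samples 1 and 2 of 24 h they became 764. The 596 calls at 72 h became 309 at a mean of at least 5 RPKM and 959 with the block. With the block and without samples 1 and 2 of 24 h they became 1137. Higher calls were 28.6% of the interaction calls as reported, 47.2% with trimmed-mean scaling, 56.8% with quantile normalization, 46.2% with a pseudocount of 1, 18.8% with one of 0.1, 39.5% with the block, 17.4% with sample weights, 11.1% without the shallow libraries and 0% with only the 14 libraries. The effect calls at 24 h with quantile normalization were 570 higher and 743 lower. The cause of these shifts was not tested.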

Other observations

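Of 35 stromal genes tested, 13 were called higher at 72 h than at 24 h in treated utricles, against 1.62% of all entries, and 5 in control utricles, against 0.599%. None was called lower in either arm by limma, and the median change was 0.76 and 0.58. The limma fit called 0 interactions in this list, and the paired fit called 1 (COL5A1, 0.89, picked out after its values were seen). An unadjusted p under 0.05 was found in 3 of the 35, against 988 of the 13862 entries. The 36 stromal markers in the table summed to 1300 to 2930 RPKM in control and 1880 to 3180 in treated utricles at 72 h. The medians of these sums were 1360 RPKM in control and 2580 in treated utricles.

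Genes of motile cilia and the axoneme were called lower after treatment in 11 of 54 cases at 24 h, against 5.4% of all entries. At 72 h 3 were called lower, against 2.89%. The limma fit called 0 interactions. An unadjusted p under 0.05 was found in 5 of the 54, against 988 of the 13862 entries. HYDIN, a component of the central apparatus of motile cilia that was picked out after its values were seen, had effects of −2.70 ± 0.24 and −2.37 ± 0.27. RSPH9, a radial spoke protein gene picked out in the same way, had effects of −1.28 ± 0.23 and −0.52 ± 0.27, and its interaction of 0.75 ± 0.35 was not called (limma adjusted p = 0.678).

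The paired fit called 17 entries that the unpaired one did not. Genes named from it were chosen after their values were seen. The mitotic genes PRC1, CENPF, FOXM1 and ESPL1 were among them, with interactions of 1.98, 2.21, 1.52 and 1.60. VIP, vasoactive intestinal peptide, was at 0 to 1.16 RPKM in control and 0.608 to 1.61 in treated utricles at 24 h, and at 4.0 to 11.1 and 0.469 to 1.36 at 72 h. Its interaction was −3.08 ± 0.86, with an adjusted p of 0.175 in the unpaired limma fit and 0.0375 in the paired one.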
